A study of Mus musculus with 18 samples.

Results

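Gene expression was compared between high and low performers in the mediodorsal thalamus (MDTH in the labels) of Diversity Outbred mice, a stock bred from several inbred founders so that no animal repeats the genome of another. The comparison takes in every library titled as an MDTH high performer, 3 of them, and every library titled as an MDTH low performer, another 3, so 6 of the 18 libraries of the series. The other 12 came from the prefrontal cortex (PFC) and the tissue labelled HPF, with 3 high and 3 low performers each. The study's design text names short-term memory and quantitative trait locus mapping as its purpose, and neither group is described as treated. The behavioural test, the age and sex of the mice and the boundaries of the dissection are not given in the sources used here. They also leave unsaid whether the 3 libraries of a group are 3 animals. Names of the MDTH libraries each hold a different number, 44, 88 and 165 in high performers and 130, 163 and 6 in low. What these numbers stand for is not given. The p-values therefore reflect library-to-library spread, which may be technical.

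The mediodorsal nucleus is a relay of the thalamus that exchanges excitatory connections with the prefrontal cortex and is known for its part in working memory. Its relay neurons release glutamate and switch between tonic and burst firing, which depends on T-type calcium channels, HCN channels and potassium channels. The rodent nucleus holds few inhibitory neurons of its own, and is bounded by the inhibitory reticular nucleus at a distance and by the habenula and other midline nuclei nearby. Gpr12, an orphan receptor named in the title of the series, couples to stimulatory G proteins and raises cyclic AMP.

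Values are the authors' normalized counts, gene counts divided by normalization factors. Column totals ran from 53283250 to 57436388 normalized counts. Depth, estimated from the worth of 1 read at low values, was 42941006 to 43864595 reads in high performers and 45508605 to 47535113 in low performers. The dissection was checked against 8 markers of thalamic relay neurons. Summed, they reached 252312, 295176 and 291752 normalized counts in high performers and 179332, 128197 and 121974 in low performers, against 9890 to 14345 in PFC and 12873 to 25949 in HPF. All 6 libraries therefore carried the thalamic signature that the label names. The sum was higher in high performers, but not every marker was. By the test given below, 5 of the 8 passed as higher and 1, Tcf7l2, as lower. Library names were written in lower case in all high performers and in upper case in all low performers of MDTH and PFC. HPF names were all in upper case, but their letter codes also differed, FF or EF in high performers and BA or BD in low. Whether the styles mark separate preparations is not given, so performance and such a difference cannot be told apart in MDTH. Library low 1 correlated at 0.959 with library high 1 over the log2 values of the genes tested. For 2456 of the genes that passed below (54.9%), low 1 was the low performer closest to the high group, and for 2314 (51.8%) high 1 was the high performer closest to the low group.

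Of 17861 genes with a mean of at least 10 normalized counts over the 6 libraries, 4470 passed at an adjusted p below 0.05, which is 25.0%. The test was limma on log2(normalized count + 1), two-sided, with Benjamini-Hochberg adjustment, and log2 differences throughout are high minus low on that scale. Higher in high performers were 2233 genes (12.5%) and lower were 2237 (12.5%). Counts for gene lists below are to be read beside these shares. Lists and members were chosen with earlier results of these data known, so their shares are a description. Among 1237 genes that passed with more than a 2-fold difference (6.93%), 342 were higher (1.91%) and 895 lower (5.01%). High and low performers had separate ranges for 7898 genes (44.2%). Without 1 library the number that passed was 2469 (13.8%, high 2), 2800 (15.6%, high 3), 2377 (13.4%, low 2) or 1839 (10.3%, low 3), against 4223 (23.6%) without high 1 and 3786 (21.2%) without low 1. All 6 of these repeat fits called 1651 of the 4470 genes (36.9%), including 45.0% of the genes over 2-fold higher and 46.1% of those over 2-fold lower.

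**Figure D1:**
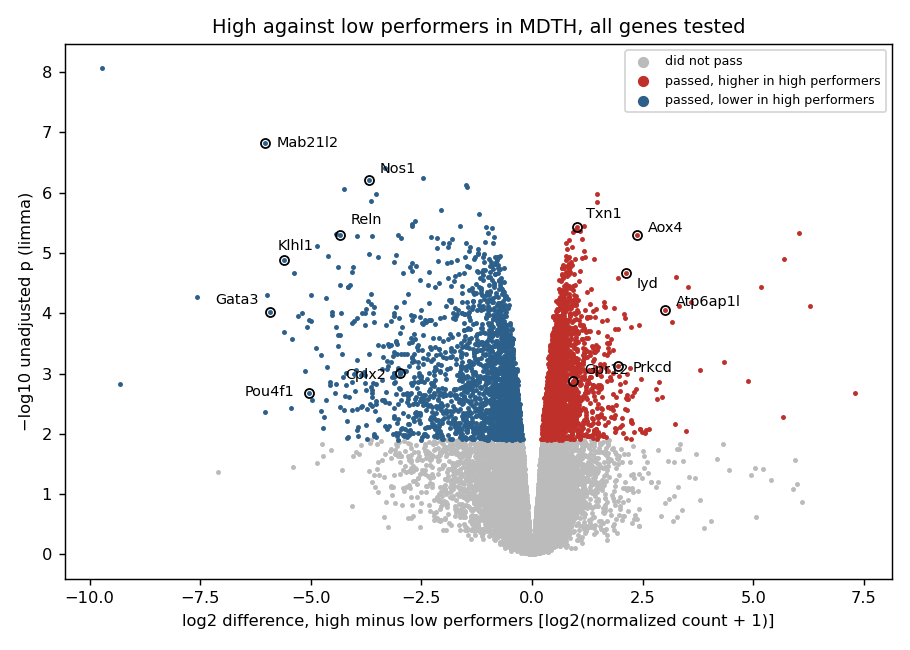
Log2 difference (high minus low performers) against -log10 of the unadjusted p for each of the 17861 genes tested in MDTH. Red points passed and were higher in high performers, blue points passed and were lower, and grey points did not pass. The named circles are genes described in the text, and the blue points reach further from 0 than the red ones.

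Gpr12 lies on chromosome 5 at 146582398 to 146585239 on the minus strand (GRCm38, GENCODE M21). It was measured at 2388, 3118 and 2993 normalized counts in high performers and at 1917, 1325 and 1251 in low performers. Every high performer was above every low performer, and 44.2% of all genes tested had groups apart in either direction. Low 1 was the nearest to the high group. The means were 2833 ± 390 and 1497 ± 365 (SD, n = 3 each), a ratio of 1.89, and the log2 difference was 0.94 (SE 0.18, limma adjusted p = 0.0135). Leaving out low 3 ended the call (adjusted p = 0.0524), and the other 5 repeat fits kept it. In PFC, Gpr12 was at 619, 721 and 672 normalized counts in high performers and 757, 501 and 620 in low performers, and in HPF at 1424, 1452 and 1462 against 1446, 1550 and 1649. The MDTH difference exceeded that of HPF by 1.03 on the log2 scale (limma interaction adjusted p = 0.00615). Against PFC the excess was 0.82 and did not pass (limma adjusted p = 0.066). Both come from a fit that treats libraries as independent, although name numbers recur across tissues.

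Of 25 genes that mark thalamic relay neurons, all tested, 15 were higher in high performers (60.0%, against 12.5% of all genes). Of the rest, 1 was lower and 9 did not pass. The median log2 difference was 0.90 against -0.0031 over all genes tested. Prkcd, a protein kinase C isoform that marks relay neurons, stood at 56378, 71303 and 85715 normalized counts in high performers and at 31847, 11873 and 16153 in low performers. The groups were far apart, with a ratio of means of 3.56 and a log2 difference of 1.94 (SE 0.35, adjusted p = 0.0103). The log2 difference of Prkcd was -0.90 in PFC and -1.90 in HPF. Both limma interactions passed (adjusted p = 0.0197 against PFC and 0.000916 against HPF). Prkcd was less abundant there, at 199 to 500 normalized counts in PFC and 822 to 8681 in HPF. Prkcd does not stand for the list, whose median log2 difference was -0.11 in PFC and 0.92 in HPF. Of the 25 relay genes, 9 passed the interaction with PFC and 5 that with HPF.

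Other relay genes separated the groups as well. Slc17a6, which encodes the vesicular glutamate transporter of subcortical neurons, was at 50303, 55025 and 50476 normalized counts in high performers and 34500, 36292 and 32071 in low performers (log2 difference 0.60, adjusted p = 0.00547). Necab1, a calcium-binding protein, was at 51872, 54421 and 57673 against 32718, 27008 and 21751 (1.03, adjusted p = 0.00567). Calb1, the calcium buffer calbindin, was close to double, at 12707, 12421 and 12759 against 6099, 6949 and 5981 (1.00, adjusted p = 0.0027). For these 3 genes no library of one group reached the other, as for 44.2% of all genes tested.

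Rises of over 1 on the log2 scale also occurred for the tyrosine phosphatases Ptpn3 (1.79) and Ptpn4 (1.83), the nuclear receptor Rora (1.53), the guanine nucleotide exchange factor Plekhg1 (1.45) and the axon guidance ligand Ntng1 (1.17). Adarb1, which edits glutamate receptor transcripts, was at 85928, 90235 and 100813 normalized counts in high performers and 51708, 28124 and 29405 in low performers (log2 difference 1.40, adjusted p = 0.00801). The exception was Tcf7l2, a transcription factor that specifies thalamic identity, which changed by -0.49 (adjusted p = 0.0186) with 29165, 23166 and 24746 normalized counts in high performers and 37512, 36967 and 33191 in low performers. Among 9 members that did not pass were the developmental regulators Gbx2 (0.55), Lef1 (0.16), Zic1 (-0.74), Zic4 (-0.10) and Zfhx3 (0.05). Rora was the only transcription factor of the list that rose. Without 1 library, the number of relay genes higher ran from 11 to 16. In bulk tissue, fewer cells of a type and less RNA per cell cannot be told apart.

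**Figure D2:**
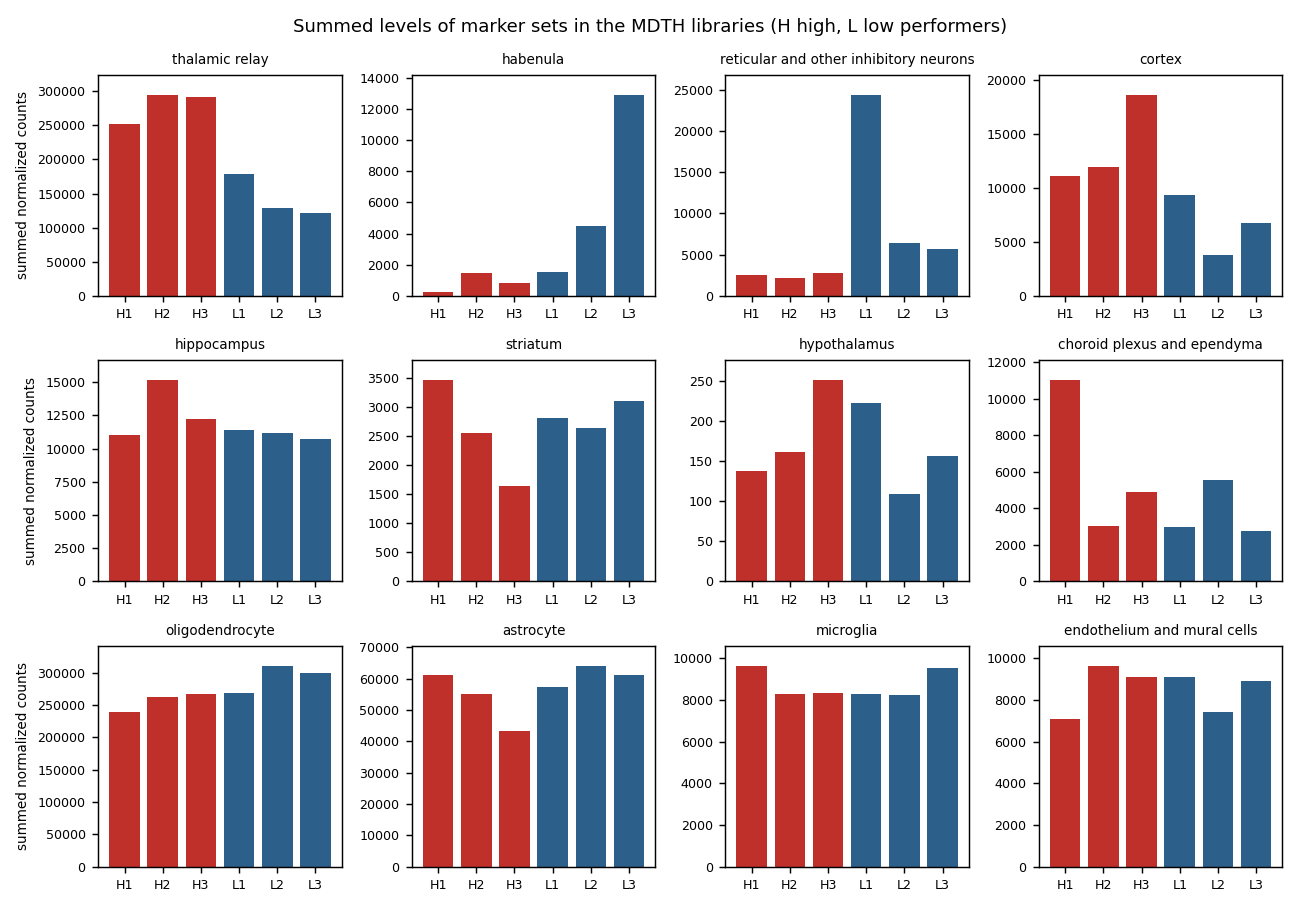
Summed normalized counts of 12 sets of cell type and region markers in each MDTH library, high performers in red (H1 to H3) and low performers in blue (L1 to L3). Relay markers are highest in all red bars, habenula markers are highest in L2 and L3, and inhibitory markers are highest in L1.

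Summed markers of the habenula and of inhibitory neurons moved the other way. The 6 habenula markers summed to 259, 1440 and 838 normalized counts in high performers and to 1512, 4506 and 12936 in low performers. Of them, 3 passed as lower. In PFC they summed to 1021 to 1451, a range that holds high 2 and lies just below low 1. Gpr151 made up 1298 of the sum in high 2. Tac1 (474 to 1030), Tac2 (138 to 358) and Chrnb3 (120 to 381) were measured in PFC as well. In high performers the 6 markers of the reticular nucleus and other inhibitory neurons summed to 2457, 2167 and 2724. In low performers they summed to 24459, 6424 and 5725. The 3 that passed as lower were Gad2, Slc32a1 and Sst. Six3 was at 11.5, 52.7 and 53.6 in high performers and 294, 65.2 and 54.1 in low performers. Pvalb was at 971, 929 and 1151 against 1416, 471 and 759, and neither passed. Which inhibitory neurons the sum reflects was not tested. The low performers differed among themselves, since low 1 was highest for inhibitory markers and lowest of its group for habenula markers, while low 3 was highest for habenula markers. Cortical markers summed to 11139 to 18644 in high performers and 3802 to 9380 in low performers, none of the 5 tested passed, and nearly all of the sum was the glutamate transporter Slc17a7. In PFC the same markers reached 102440 to 122108. How far differences in the dissected tissue contribute to any result here, Gpr12 and the relay genes included, was not tested.

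Of the 17 habenula genes listed, all tested, 9 were lower in high performers and 0 were higher (median log2 difference -3.42). Pou4f1, the transcription factor that defines medial habenula neurons, was at 10.4, 54.2 and 31.1 normalized counts in high performers and at 169, 1335 and 3105 in low performers, a difference of -5.03 (SE 1.07, adjusted p = 0.0172). Its level was far from even among the low performers, and it stayed at or below 31.3 in every PFC and HPF library. Tac1, the precursor of substance P, was at 78.5, 49.98 and 45.02 against 399, 772 and 1329 (-3.70, adjusted p = 0.00398). Lmo3, a LIM-domain cofactor, was at 344, 236 and 286 against 1423, 2219 and 2099 (-2.71, adjusted p = 0.0027). The nicotinic subunit Chrnb3 was at 12.2, 7.93 and 18.5 against 48.6, 131 and 1299, a fall carried mainly by low 3 (-3.95, adjusted p = 0.0393).

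Several defining genes of the medial habenula missed the threshold, with low performers that were uneven. Tac2 was at 7.88, 10.6 and 36.7 normalized counts in high performers and 32.6, 225 and 1709 in low performers (adjusted p = 0.0719), and Chrnb4 was at 2.60, 19.7 and 18.3 against 37.8, 97.2 and 1718 (adjusted p = 0.0743). Leaving out low 1 raised the number of habenula genes lower to 13. It was 4 without low 2 or low 3, 5 without high 2 or high 3, and 7 without high 1.

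Part of the inhibitory neuron genes fell. Of 20 listed and 17 tested, 7 were lower and 0 higher (median -1.23). Gad2, 1 of the enzymes that make GABA, was at 536, 495 and 437 normalized counts in high performers and 9547, 2839 and 2457 in low performers (-3.05, SE 0.47, adjusted p = 0.00701). Slc32a1, the vesicular GABA transporter, was at 120, 63.2 and 107 against 3164, 553 and 392 (-3.23, adjusted p = 0.0214). Gad1 gave 679, 590 and 813 against 9170, 1528 and 1517 and did not pass (adjusted p = 0.0631), with low 1 alone far above the others.

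Reln, the secreted glycoprotein reelin, was at 157, 55.4 and 104 normalized counts in high performers and at 1648, 2063 and 2311 in low performers (-4.35, SE 0.36, adjusted p = 0.0027). All low performers were close to each other for Reln, unlike for Gad2. Sst, the somatostatin precursor, was at 139, 37.0 and 162 against 868, 968 and 545 (-3.01, adjusted p = 0.0111). The calcium buffer Pvalb (0.35) did not pass.

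The genes with the most extreme decreases had low values in high performers. Mab21l2 and Gata3 were nearly silent there, while Tpbg was at 146, 36.3 and 45.2 normalized counts. Mab21l2, a developmental regulator, was at 7.81, 5.26 and 5.24 normalized counts in high performers and at 414, 412 and 555 in low performers. The mean was 75.4 times as high in low performers, the log2 difference was -6.03 (SE 0.30, adjusted p = 0.00135), and the call held in all 6 repeat fits. Gata3, a transcription factor of midbrain and thalamic inhibitory lineages, was at 2.78, 5.93 and 0.931 against 636, 144 and 123 (-5.93, adjusted p = 0.00448). At so few counts in high performers the size of these differences depends on the value of 1 that was added before the log.

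Klhl1, an actin-binding protein of neurons, was at 48.1, 11.8 and 13.1 normalized counts in high performers and 708, 1165 and 1217 in low performers (-5.60, adjusted p = 0.00278). Also lower by over 4 on the log2 scale were the transcription factors Tfap2d (-5.38) and Ebf3 (-4.85), the orphan receptor Gpr101 (-4.995), the phosphatase Ptprq (-5.42), the trophoblast glycoprotein Tpbg (-4.67) and the chemokine Cxcl13 (-4.72). Cxcl13 stood apart from the rest, since low 1 had 10.9 normalized counts against 227 and 424 in low 2 and low 3, and its call held in 1 of 6 repeat fits.

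**Figure D3:**
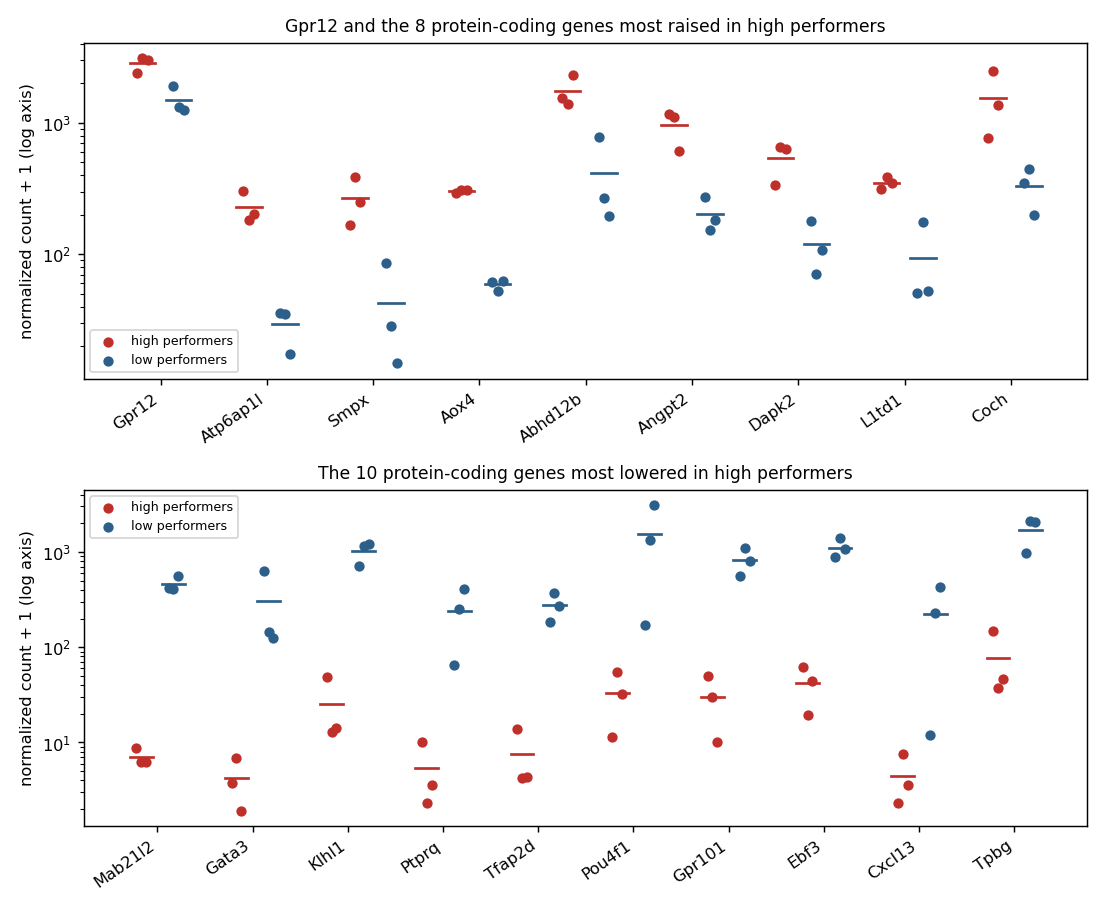
Normalized counts (plus 1, log axis) in each MDTH library for Gpr12 and the 8 protein-coding genes with the largest rises (above), and the 10 with the largest decreases (below), among genes that passed with a higher-group mean of at least 200. Red points are high and blue points low performers, and horizontal lines are group means. Red and blue points do not overlap for any gene, which the choice of genes fixed for all but Gpr12.

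The largest increases were smaller in fold than the largest decreases. Aox4, an aldehyde oxidase, was at 292, 308 and 305 normalized counts in high performers and 60.4, 51.6 and 61.8 in low performers (2.36, SE 0.20, adjusted p = 0.0027). Atp6ap1l, named for its likeness to a proton pump accessory protein, was at 303, 183 and 202 against 34.99, 34.03 and 16.3, a ratio of means of 8.06 (3.01, adjusted p = 0.00435). Iyd, which recovers iodide from iodotyrosines in the thyroid, was at 337, 259 and 359 against 79.7, 64.05 and 72.4 (2.12, adjusted p = 0.00282).

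These 3 genes, the kinase Dapk2 (2.22) and the vascular ligand Angpt2 (2.23) passed in all 6 repeat fits. Smpx (2.94), Abhd12b (2.31), L1td1 (2.16) and Coch (2.14) passed in 2 to 4 of them. Smpx, a small muscle protein, was at 167, 386 and 249 normalized counts in high performers and 84.3, 27.4 and 13.7 in low performers, with low 1 again the nearest to the high group.

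Subunit genes of ionotropic glutamate receptors were called in both directions. Of 7 NMDA receptor subunits tested, 3 were higher (42.9%, against 12.5% of all genes) and 0 lower. Grin2b was at 17635, 20168 and 19025 normalized counts in high performers and 10381, 7448 and 6577 in low performers (1.24, SE 0.16, adjusted p = 0.0047), Grin2a rose by 0.87 and Grin2c by 1.06. Among 18 AMPA and kainate receptor subunits and partners, 3 were higher (16.7%) and 4 lower (22.2%). Gria3 was at 8218, 11803 and 10315 against 5722, 3520 and 3760 (1.24, adjusted p = 0.00869), while Gria1 was at 15295, 19094 and 16114 against 23227, 25704 and 22719 (-0.51, adjusted p = 0.0151). The kainate subunit Grik4 was lower by 1.42, at 673, 401 and 507 against 1163, 1678 and 1348.

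Metabotropic glutamate receptors and GABA receptors gave 3 higher and 1 lower each, of 7 and 16 tested. The shares were 42.9% higher and 14.3% lower for metabotropic receptors. They were 18.8% and 6.25% for GABA receptors, against 12.5% of all genes each way. The 3 metabotropic receptors became 0 without high 3, low 2 or low 3 and 1 without high 1 or high 2. The log2 difference was 0.67 for Grm4 and 0.69 for Grm7, and Grm3 fell by 0.51. For GABA receptors, the thalamic extrasynaptic pair Gabra4 and Gabrd rose together. Gabra4 was at 24906, 39552 and 33935 normalized counts in high performers and 15574, 8545 and 8399 in low performers (1.63, SE 0.27, adjusted p = 0.00829), and Gabrd differed by 1.99 (adjusted p = 0.0165). Gabrb2 rose by 1.16, and Gabrq, a subunit of monoaminergic and hypothalamic neurons, fell by 2.17.

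Genes of burst firing and repolarization moved in both directions. Of 19 calcium and HCN channel genes, 5 were higher (26.3%) and 7 lower (36.8%), against 12.5% of all genes each way. T-type channels differed among themselves. Cacna1g, the main T-type channel of relay neurons, was at 20419, 19748 and 21173 normalized counts in high performers and 20571, 14773 and 14551 in low performers and did not pass (adjusted p = 0.135). Cacna1h was at 526, 417 and 445 normalized counts in high performers and 1164, 1108 and 1150 in low performers (-1.31, SE 0.12, adjusted p = 0.00278), and Cacna1i differed by -1.35 (adjusted p = 0.0316). The pacemaker subunit Hcn3 (-0.995) was lower, as was the auxiliary subunit Cacna2d2, at 2560, 1631 and 1615 against 7717, 7965 and 9648 (-2.15, adjusted p = 0.00278). Higher were the auxiliary subunit Cacnb4, at 25916, 30215 and 25492 against 12721, 8446 and 6783 (1.59, adjusted p = 0.00496), and the L-type channel Cacna1c (0.86).

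Potassium channels divided 11 higher and 10 lower, of 65 listed and 55 tested. Kcnc2, a fast delayed rectifier, was at 26583, 36362 and 34673 normalized counts in high performers and 17381, 8917 and 8864 in low performers (1.54, adjusted p = 0.00976). Kcnc4, of the same subfamily, went the other way with 1098, 770 and 940 against 3680, 4376 and 3603 (-2.06, SE 0.15, adjusted p = 0.00262). The M-current subunits were likewise split, Kcnq3 at 1.36 and Kcnq5 at -2.29 on the log2 scale.

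Calcium handling showed a similar division between close relatives. The endoplasmic reticulum pump Atp2a2 was at 100966, 110610 and 122307 normalized counts in high performers and 65154, 46970 and 47840 in low performers (1.07, SE 0.15, adjusted p = 0.00531). Atp2b1, a plasma membrane pump, was at 44753, 69547 and 55017 against 29091, 15081 and 14921 (1.57, adjusted p = 0.0105), whereas Atp2b4 was at 878, 680 and 699 against 3798, 4978 and 3804 (-2.47, SE 0.15, adjusted p = 0.00192). In all, 5 of 13 pumps and exchangers were higher (38.5%) and 2 lower (15.4%). Of 22 calcium buffers and sensors, 5 were higher (22.7%) and 3 lower (13.6%). Both lower shares were near the 12.5% of all genes. The calcium sensor Hpcal1 was at 210, 183 and 204 against 1586, 2633 and 2967 (-3.54, adjusted p = 0.00192).

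Synaptic release genes gave 8 higher (25.0%) and 5 lower (15.6%) of 32 tested, the lower share being near the 12.5% of all genes. Cplx2, a complexin that clamps vesicle fusion, was at 11106, 1972 and 5184 normalized counts in high performers and 30728, 39222 and 47375 in low performers (-2.99, SE 0.56, adjusted p = 0.0117). Sv2c was at 435, 264 and 281 against 1262, 3957 and 5296 (-3.22), and Syn3 fell by 1.91. The calcium sensors Syt1 (0.45) and Syt7 (0.81) and the active-zone proteins Rims1 (0.54), Unc13a (0.49) and Bsn (0.45) rose. Postsynaptic scaffolds gave 5 higher (21.7%) and 4 lower (17.4%) of 23, with Dlg1 at 2606, 2819 and 2460 against 4462, 4659 and 4407 (-0.78, adjusted p = 0.00282) and Shank3 higher by 0.89.

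Of 14 serotonin receptor genes listed and 12 tested, 6 were lower, 0 were higher and 6 did not pass (median -2.29). Htr2a, a receptor coupled to phospholipase C, was at 26.0, 19.7 and 17.0 normalized counts in high performers and 334, 438 and 478 in low performers (-4.26, SE 0.27, adjusted p = 0.00192). Htr1a, an inhibitory receptor, was at 20.8, 22.4 and 19.6 against 357, 227 and 175 (-3.47, SE 0.32, adjusted p = 0.00278). For both receptors the groups were far apart, and both interactions with PFC and HPF passed. Htr7, prominent in the thalamus, was at 3620, 3248 and 3486 against 3141, 3652 and 3212 and did not pass. The 6 became 2 without low 2 or low 3, 3 without high 3 and 5 without any other library.

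Opioid and cannabinoid receptors gave 3 lower and 0 higher of 6. The 3 became 4 without high 1 and 1 without any other library. Cnr1 passed in all 6 repeat fits. It was at 995, 978 and 581 normalized counts in high performers and 1993, 2461 and 2290 in low performers (-1.44, adjusted p = 0.00643). Neuropeptide precursors gave 7 lower and 1 higher of 22 tested, Penk (-2.66), Pdyn (-4.66) and Grp (-3.40) being lower and Cck (1.06) higher. Acetylcholine receptors gave 2 lower of 14 (14.3%, close to the 12.5% of all genes) and 0 higher. Dopamine and adrenergic receptors gave 3 in each direction of 14 (21.4% each, against 12.5% of all genes). Adra1b (1.02), Adra1d (1.51) and Adra2b (1.30) were higher and Adra2a (-1.76), Adra2c (-2.22) and Adrb3 (-2.13) lower.

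In cyclic nucleotide signalling, 9 genes were higher (21.4%) and 6 lower (14.3%, near the 12.5% of all genes) of 42. Nos1, which makes nitric oxide in neurons, was at 313, 270 and 230 normalized counts in high performers and 4783, 3342 and 2655 in low performers. The mean was 13.2 times as high in low performers (-3.69, SE 0.23, adjusted p = 0.00192). Its PFC difference was 0.27 and its HPF difference -0.44, and both interactions passed. Adcy1, a calcium-stimulated adenylyl cyclase of the thalamus, was at 44008, 71092 and 55319 against 34280, 20271 and 18225 (1.26, adjusted p = 0.017). Prkar2a, which holds protein kinase A inactive until cyclic AMP binds, was at 3652, 3813 and 3902 against 6661, 7056 and 8601 (-0.96, adjusted p = 0.00342).

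Of 66 axon guidance genes tested, 19 were lower (28.8%, against 12.5% of all genes), 8 were higher and 39 did not pass. The netrin receptor Unc5a was at 646, 499 and 526 normalized counts in high performers and 1633, 2163 and 2043 in low performers (-1.80, SE 0.15, adjusted p = 0.0027), Slit2 differed by -2.67 and Nrp2 by -2.50. The ephrin receptors Epha4, Epha6, Epha3 and Epha7 were higher, Epha4 at 18776, 19888 and 20047 against 11472, 9846 and 9081 (0.96, SE 0.10, adjusted p = 0.00282). The ephrin receptor Ephb1 was lower, at 747, 865 and 960 against 1799, 2179 and 2495 (-1.33, adjusted p = 0.00366). Of 30 cadherins and protocadherins tested outside the protocadherin clusters, 6 were lower, 0 higher and 24 did not pass. Pcdh8 was at 206, 126 and 131 against 940, 995 and 1019 (-2.70, adjusted p = 0.0027), and Cdh22 and Pcdh17 fell by 1.48 and 1.14.

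**Figure D4:**
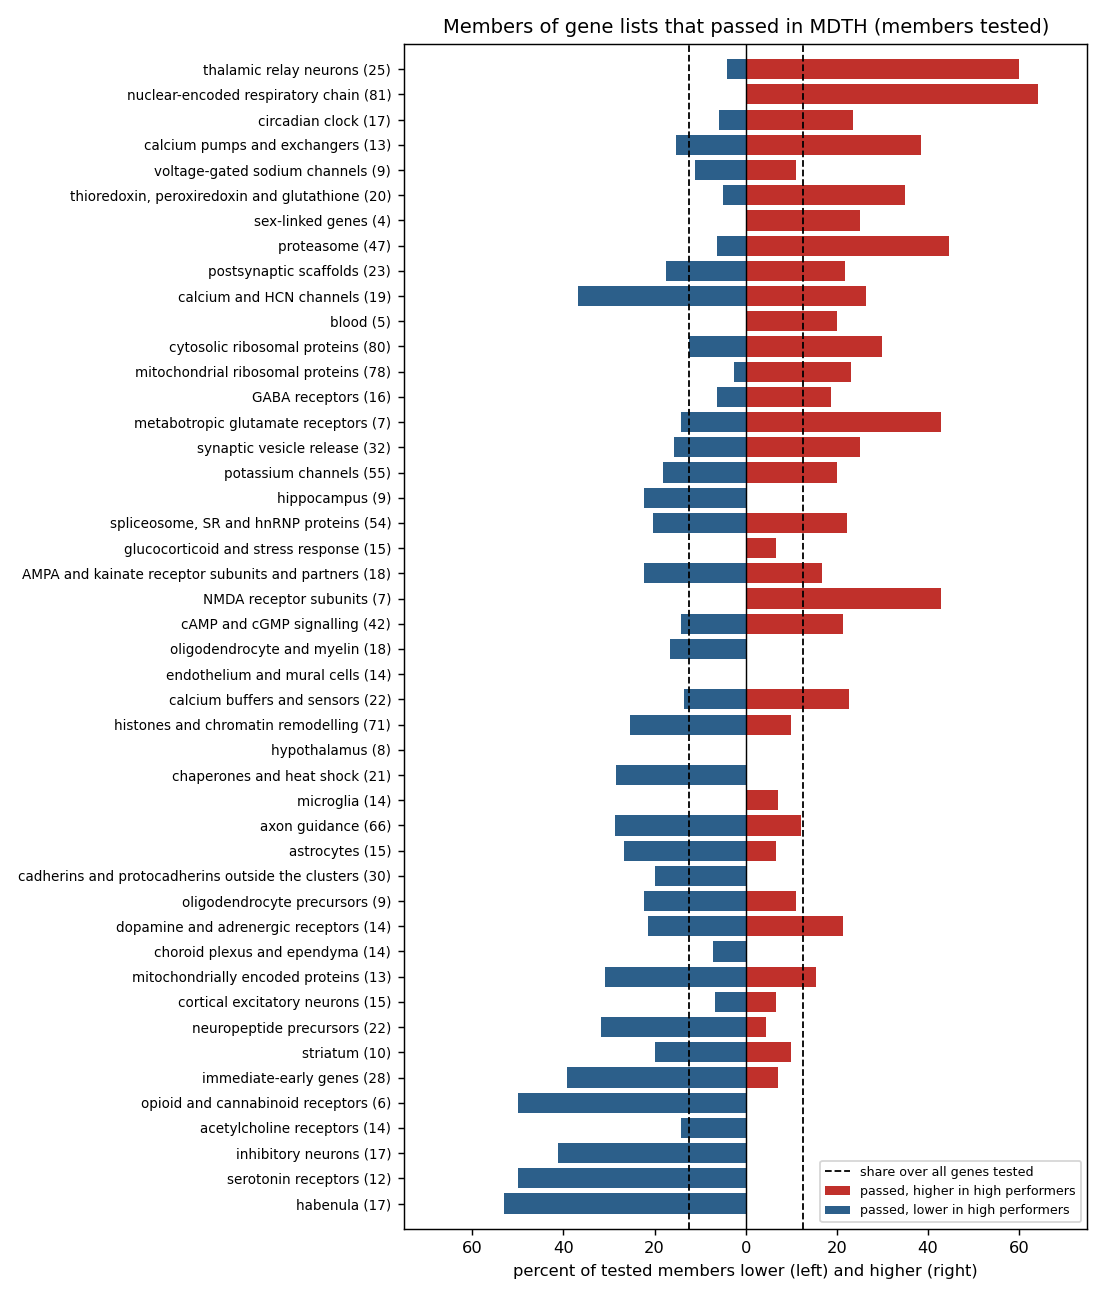
Percent of the tested members of each gene list that passed lower (blue, left of 0) or higher (red, right of 0) in high performers, with the number tested in brackets and dashed lines at 12.5%, the share over all genes tested in each direction. Lists run from the highest median log2 difference at the top to the lowest at the bottom. The nuclear-encoded respiratory chain and the relay neuron genes have the longest red bars.

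Counts for the lists moved with the same libraries as the total. Without 1 library the potassium channels ranged from 3 to 13 higher and from 4 to 12 lower, and the calcium and HCN channels from 3 to 9 higher and from 3 to 7 lower. Axon guidance genes ranged from 7 to 19 lower and synaptic release genes from 3 to 8 higher. Cyclic nucleotide genes ranged from 3 to 10 higher, and chromatin regulators from 9 to 15 lower. Postsynaptic scaffolds ranged from 1 to 9 higher and from 1 to 4 lower. Calcium pumps and exchangers ranged from 2 to 5 higher, and neuropeptide precursors from 3 to 7 lower. The highest counts of channels and guidance genes came without high 1 or low 1, and the lowest without low 2 or low 3. Where a list had 0 members in a direction, the count at an unadjusted limma p below 0.05 was 0 for higher habenula, inhibitory and serotonin receptor genes. It was 2 for lower NMDA receptor subunits, 3 for higher cadherins and for higher chaperones, and 1 for higher acetylcholine and for higher opioid and cannabinoid receptors.

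The nuclear-encoded respiratory chain was the list with the highest share of rises. Its subunits build the complexes that pass electrons to oxygen and make ATP. Of 82 listed and 81 tested, 52 were higher in high performers (64.2% against 12.5% of all genes) and 0 were lower, with a median log2 difference of 0.41. Ndufa4 was at 10351, 12109 and 11270 normalized counts in high performers and 5646, 5066 and 4737 in low performers (1.13, SE 0.10, adjusted p = 0.0027). Atp5mpl, a small subunit of ATP synthase, was at 2555, 3068 and 2998 against 1386, 1228 and 1211 (1.17, adjusted p = 0.00278), and Cox7a2 was at 5460, 6053 and 5959 against 3462, 3444 and 3394 (0.76, adjusted p = 0.00278). Rises occurred in each of the 5 complexes, among them Ndufs4 (0.93), Sdhc (0.66), Uqcrfs1 (0.89), Cox6c (0.84) and Atp5l (0.77). At an unadjusted p below 0.05, 56 were higher and 1 was lower by limma.

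Members summed to 511861, 552485 and 555200 normalized counts in high performers and 446744, 406755 and 412158 in low performers. Without low 3 the count fell to 33, and it was 35 to 48 without any other library. In PFC the median was 0.31 and 0 members passed the interaction with MDTH by limma, 7 having an unadjusted p below 0.05. In HPF the median was -0.10, and 56 members passed the interaction. PFC shares the naming style of its libraries with MDTH, as given above, and HPF has letter codes that also separate its groups. Name numbers shared with MDTH are 3 of high performers and 1 of low performers, for PFC and likewise for HPF.

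Transcripts of the mitochondrial genome did not follow. Of 13, 2 were higher and 4 lower (median -0.36). mt-Nd5 was at 244666, 224536 and 241279 normalized counts in high performers and 346334, 292390 and 398625 in low performers (-0.54, SE 0.14, adjusted p = 0.0341), and mt-Nd2 fell by 0.52. mt-Nd3 was at 6310, 3698 and 2973 against 1437, 1225 and 1059 (1.74, adjusted p = 0.00686) and mt-Nd4l rose by 1.09. These transcripts have low GC content (median 37.1%), and after a correction for GC content 8 were lower and 2 higher. Without low 3 0 were lower, without high 2 there was 1, and without any other library there were 2.

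Other housekeeping complexes rose in part. The proteasome, which degrades tagged proteins, gave 21 higher and 3 lower of 47. Psmb4 was at 4230, 4286 and 4318 normalized counts in high performers and 2440, 2534 and 2521 in low performers (0.78, SE 0.07, adjusted p = 0.0027), and Psmd6 and Psmb7 rose by 0.71 and 0.70. The interferon-inducible regulator Psme1 fell by 1.09. Cytosolic ribosomal proteins gave 24 higher (30.0%) and 10 lower (12.5%, the same share as all genes) of 80. Rpl22l1 was at 2634, 2655 and 2295 against 868, 952 and 920 (1.47, adjusted p = 0.00192). Mitochondrial ribosomal proteins gave 18 higher (23.1%) and 2 lower (2.56%) of 78. The 18 became 6 without low 3, 9 without high 2, 10 without high 3 and 11 without low 2. Ribosomal protein genes have many near-identical pseudogenes, so their counts are uncertain.

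Antioxidant enzymes gave 7 higher and 1 lower of 20. Txn1, the cytosolic thioredoxin, was at 3214, 3639 and 3550 normalized counts in high performers and 1699, 1738 and 1662 in low performers (1.03, SE 0.08, adjusted p = 0.0027), and Prdx4 and Prdx2 rose by 0.89 and 0.47. Chromatin regulators leaned the other way, 18 lower (25.4%) and 7 higher (9.86%) of 71, against 12.5% of all genes each way. Kdm2a, a histone demethylase, was at 4105, 4575 and 4881 against 8745, 7968 and 8105 (-0.87, adjusted p = 0.00282), and Chd2 and Kmt2a fell by 0.73 and 0.77. Spliceosome and hnRNP genes gave 12 higher (22.2%) and 11 lower (20.4%) of 54, with Srsf3 at 0.84 and Snrpd3 at -0.86. Clock genes gave 4 higher (23.5%) and 1 lower (5.88%) of 17, the repressors Nr1d1 (0.57) and Nr1d2 (0.55) being among the higher ones.

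Immediate-early genes are those that neurons transcribe within minutes of activity. Of 29 listed and 28 tested, 11 were lower in high performers, 2 were higher and 15 did not pass, with a median of -0.81. Their promoters commonly carry the cAMP response element, and 4 stretches of promoter are shown from lower members of the immediate-early and chaperone lists, each chosen to show where a motif match lies. The promoter of Bag3, the chaperone with the smallest p, holds no match and is not printed. Each holds the 250 bases before the RefSeq start (GRCm38.p6), 5′ to 3′ on the gene's strand, with the motif in capitals. The motif was TGACG for Junb (chr8:84978749-84978998, minus strand) and Nr4a2 (chr2:57124004-57124253, minus strand), on either strand, so CGTCA is the same motif reversed. For Hspa1a (chr17:34972157-34972406, minus strand) and Hspa1b (chr17:34959239-34959488, minus strand) it was GAANNTTC, the inner part of the heat shock element.
Junb: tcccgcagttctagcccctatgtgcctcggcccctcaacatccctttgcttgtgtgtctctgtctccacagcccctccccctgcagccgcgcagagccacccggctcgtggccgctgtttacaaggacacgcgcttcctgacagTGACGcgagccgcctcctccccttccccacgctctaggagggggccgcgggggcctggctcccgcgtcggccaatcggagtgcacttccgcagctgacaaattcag
Nr4a2: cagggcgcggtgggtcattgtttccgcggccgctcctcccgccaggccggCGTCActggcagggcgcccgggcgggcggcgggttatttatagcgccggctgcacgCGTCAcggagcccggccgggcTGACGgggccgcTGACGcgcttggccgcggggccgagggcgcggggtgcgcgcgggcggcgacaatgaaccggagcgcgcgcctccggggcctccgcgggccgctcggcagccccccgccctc
Hspa1a: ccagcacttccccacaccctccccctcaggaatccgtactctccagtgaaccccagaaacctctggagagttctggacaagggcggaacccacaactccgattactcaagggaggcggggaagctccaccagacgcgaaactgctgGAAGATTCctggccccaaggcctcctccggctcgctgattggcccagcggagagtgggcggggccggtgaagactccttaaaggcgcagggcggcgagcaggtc
Hspa1b: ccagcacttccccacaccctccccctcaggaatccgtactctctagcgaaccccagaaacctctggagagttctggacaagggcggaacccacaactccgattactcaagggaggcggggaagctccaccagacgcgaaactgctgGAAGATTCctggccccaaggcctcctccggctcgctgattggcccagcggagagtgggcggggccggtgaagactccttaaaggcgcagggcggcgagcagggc

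Junb, a subunit of the AP-1 factor, holds 1 TGACG, 106 bases before its start. It was at 163, 77.7 and 194 normalized counts in high performers and 777, 711 and 332 in low performers (-2.07, SE 0.44, adjusted p = 0.0172). Nr4a2, an orphan nuclear receptor that is also a habenula gene, holds 4 such matches. It was at 127, 129 and 158 in high performers and 968, 3127 and 7110 in low performers (-4.33, SE 0.64, adjusted p = 0.00601). The low performers for Nr4a2 ran in the order of their habenula markers, with low 3 highest, while those for Junb did not.

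Sik1, a salt-inducible kinase, was at 666, 471 and 585 normalized counts in high performers and 1789, 2147 and 2328 in low performers (-1.87, SE 0.16, adjusted p = 0.0027). Fos was at 525, 756 and 850 against 4351, 2572 and 1050 (-1.71, adjusted p = 0.0404), and Arc was at 363, 432 and 647 against 737, 933 and 831 (-0.83, adjusted p = 0.0351). Egr1 gave 1657, 2129 and 1978 against 6937, 4874 and 1803, an overlap that left it short of the threshold (adjusted p = 0.13). Low 3 was the lowest of its group for Fos, Egr1 and Junb, and low 1 the highest. Dusp6 (0.58) and Homer1 (0.56) were the higher members.

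The core TGACG occurred in 6 of 8 promoters of lower members found in the RefSeq table, in 7 of 11 of those that did not pass and in 1 of 2 of the higher ones. It is in 17.8% of all 32851 promoters of the same length. The full element TGACGTCA, which contains the core, was in 0 of the 8, in 2 of the 11 and in 1.55% of all promoters. The list depended on GC content: after correction 7 members were lower and 0 higher. Its median in PFC was -0.93 with 0 limma interactions (6 at an unadjusted p below 0.05), and -0.03 in HPF with 3. Without 1 library the lower count was 5 (low 2), 6 (high 2 or low 1), 7 (high 1), 8 (high 3) or 9 (low 3).

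Chaperones gave 6 lower and 0 higher of 21. Hspa1a and Hspa1b, inducible heat shock proteins of the Hsp70 family, each hold 1 GAANNTTC at 104 bases before the start, and their printed promoters differ at 3 of 250 bases. Hspa1a was at 223, 142 and 375 normalized counts in high performers and 1730, 1117 and 644 in low performers (-2.23, adjusted p = 0.014), and Hspa1b at 95, 189 and 369 against 2024, 754 and 778 (-2.49, adjusted p = 0.020). The genes are close copies, so reads may be split between them. Their co-chaperone Bag3 was at 254, 255 and 246 against 718, 526 and 690 (-1.34, SE 0.16, adjusted p = 0.00398). GAANNTTC was in 2 of 5 promoters of lower members, in 3 of 11 of those that did not pass and in 6.69% of all promoters. The longer heat shock element, which contains it, was in 0 of the 5, in 1 of the 11 and in 0.466% of all. The constitutive chaperones Hsp90aa1 (0.15), Hsp90ab1 (-0.06) and Hspd1 (0.09) did not pass.

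Glial and vascular lists differed in how many members passed. Markers of oligodendrocytes summed to 239232 to 267360 normalized counts in high performers and 268355 to 310478 in low performers, and those of astrocytes to 43340 to 61349 in high performers and 57307 to 64150 in low performers. Of 18 oligodendrocyte and myelin genes 3 were lower (16.7%, against 12.5% of all genes). Mbp was at 100992, 106947 and 111437 normalized counts in high performers and 129564, 148189 and 149373 in low performers (-0.42, adjusted p = 0.0254). Of 15 astrocyte genes 4 were lower (26.7%, against 12.5% of all genes) and 1 higher, with Gfap at 846, 442 and 1088 against 1667, 3349 and 2642 (-1.73, adjusted p = 0.0178) and Agt at -1.17. Apoe, a lipid carrier made mainly by astrocytes, was at 54653, 35435 and 48334 against 75940, 89544 and 95256 (-0.93, adjusted p = 0.0115). Of 9 genes of oligodendrocyte precursors, 2 were lower, the matrix proteoglycan Vcan (-0.73) and the transcription factor Sox6 (-0.90), and 1 higher, the sialidase Neu4 (0.46). Microglia gave 1 higher of 14, Cx3cr1 (0.40), and endothelium and mural cells 0 of 14. By limma at an unadjusted p below 0.05, 1 endothelial gene was higher and 1 lower. Hypothalamic genes gave 0 of 8 tested, also without adjustment, choroid plexus genes 1 lower of 14 (Otx2, -0.996), and the glucocorticoid and stress genes 1 higher of 15 (Nr3c1, 0.54). The Y-linked Eif2s3y had reads in all 6 libraries, 1838 to 2015 normalized counts in high performers and 862 to 1524 in low performers.

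The MDTH difference was set against those of the other tissues as an interaction over all 18 libraries. Against PFC 622 genes passed (3.48%) and against HPF 3497 passed (19.6%). This fit treated the libraries as independent, although name numbers recur across tissues. With the name number as a correlated block, 1052 passed against PFC and 5019 against HPF. Of the 4470 genes that passed in MDTH, 563 (12.6%) differed from PFC and 2711 (60.6%) from HPF. Among genes lower by over 2-fold the shares were 38.2% and 71.4%, and among those higher by over 2-fold 17.8% and 52.0%. Over the 17861 genes the MDTH difference correlated at 0.469 with that of PFC and at 0.0975 with that of HPF, a description over genes from libraries that share 4 name numbers with MDTH in each case.

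The differences between the tissues fell on the gene groups unevenly. Of the relay genes 9 of 25 passed the interaction with PFC and of the axon guidance genes 9 of 66. Of the spliceosome list 0 of 54 passed it, of the cytosolic ribosomal list 0 of 80 and of the proteasome 1 of 47, with 6, 3 and 3 at an unadjusted limma p below 0.05. With HPF the spliceosome, cytosolic ribosomal and proteasome lists gave 11, 10 and 26 interactions, the relay genes 5 and the axon guidance genes 25.

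The calls of single genes depended on libraries in the same way. Leaving out high 2, high 3, low 2 or low 3, each alone, ended the calls of Adra1b, Adra1d, Adra2b, Cacna1i, Cck, Dusp6, Epha3, Epha7, Gabrd, Grin2c, Grm7, Homer1, Nr1d1, Pdyn, Psme1, Shank3, Smpx, Syt1 and mt-Nd2. Leaving out low 2 or low 3, each alone, ended those of Adra2c, Bsn, Gfap and Pou4f1, and leaving out low 3 ended those of Agt, Gpr12, Hcn3 and Kcnq5. Adcy1, Grp and Nr3c1 lost theirs without high 2, low 2 or low 3, Abhd12b and Nrp2 without high 3, low 2 or low 3, and L1td1 without high 2, high 3 or low 3. Slc32a1 lost its call without high 2 or high 3, Tcf7l2 without high 2, high 3 or low 2, Gria1 without high 3 or low 2, Coch without high 3 or low 3, Hspa1b without high 2 or low 3, and Junb without low 2. Chrnb3, Cxcl13, Mbp and Otx2 passed without low 1 alone, Fos without low 3 alone, mt-Nd5 without low 2 alone, Arc without high 3 alone, Adra2a without high 1 alone and Adrb3 without high 2 alone. Grm4 passed without high 2 or low 1, Unc13a without high 1 or high 3, Cx3cr1 without high 1 or high 2, and Eif2s3y without low 2 or low 3. Vcan lost its call without low 2 or low 3, Sox6 passed without high 1 alone, and Neu4 passed in none of the 6 repeat fits. The other genes said here to have risen or fallen passed in all 6.

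Differences in MDTH also followed the GC content of transcripts. In the decile of genes with the lowest GC content the median log2 difference was 0.17, with 18.7% of genes higher and 5.62% lower. In the decile with the highest it was -0.24, with 6.40% higher and 23.5% lower. PFC ran likewise, at 0.13 and -0.17, and HPF at 0.05 and -0.04. With a GC correction fitted per library, 4267 genes passed (23.9%), 3700 of them among the 4470. Of the genes higher by over 2-fold 95.6% still passed, and of those lower by over 2-fold 93.4%. The relay list then gave 16 higher and 1 lower and the respiratory chain 55 higher and 0 lower.

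**Figure D5:**
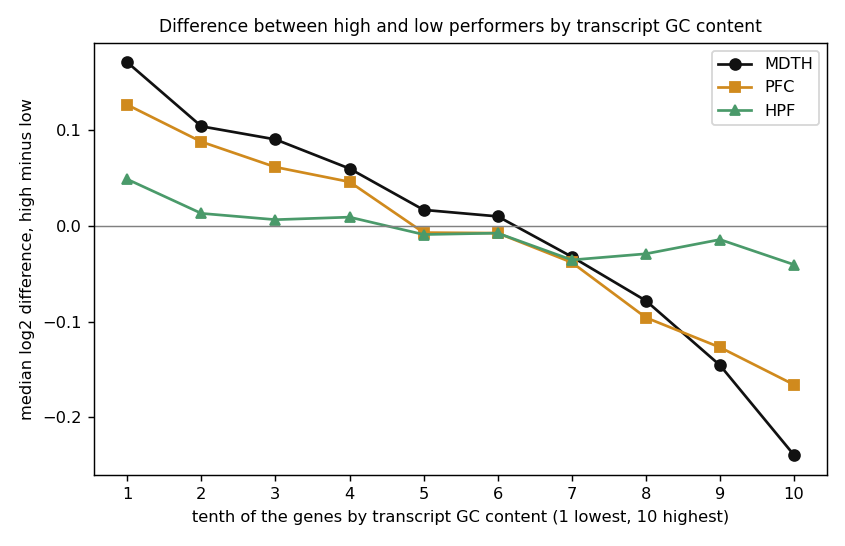
Median log2 difference (high minus low performers) in each decile of the genes by transcript GC content, for MDTH (black circles), PFC (orange squares) and HPF (green triangles). The MDTH line descends from 0.17 to -0.24, the PFC line lies close to it, and the HPF line stays within 0.05 of 0.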

How the data were processed

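RNA was sequenced from MDTH, PFC and HPF of high- and low-performing Diversity Outbred mice with a TruSeq stranded mRNA kit, per the labels' protocols. The authors deposited 1 table of 48440 genes and 18 columns, whose name gives the values as normalized counts, a signal of reads per gene over normalization factors. The tools named, per the submitters' processing notes, are STAR, Salmon and DESeq2, with no version or role. Build, annotation and strand setting are not given in the sources used here, so reads of overlapping and antisense genes may be mixed. Whole reads could not be recovered from the values, so no count test was run and a log-scale test was used. Estimated depth is given in the report; it limits only the lowest genes.

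All 18 columns matched a library. Of the gene IDs, 48058 (99.2%) were in GENCODE M21 (GRCm38), which gave coordinates, biotype, length and GC content. GC content was found for 17792 of the genes tested (99.6%). Promoters came from the RefSeq table for GRCm38.p6. Genes whose mean over the 6 MDTH libraries reached 10 were tested on log2(normalized count + 1) with limma 3.58.1 (R 4.3.3, lmFit and eBayes with a mean-variance trend), two-sided, with Benjamini-Hochberg adjustment over all genes tested, a gene passing below 0.05. The added 1 understates the fold change of low genes. Interactions were fitted over all 18 libraries as 6 group means. GC correction removed a lowess trend (span 0.3) of each library's log deviation. Ratios are ratios of group means. Tables and figures were made with Python 3.11.15, pandas 2.3.3, numpy 2.4.6, scipy 1.17.1 and matplotlib 3.10.9, and the fits were tested on simulated data.

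The genes named were Gpr12, the 10 highest and 10 lowest log2 differences and the 6 largest absolute rises and decreases among protein-coding genes that passed without overlap, and up to 3 members of each of 46 lists with the smallest p, 145 genes in all. For the first 20 the higher group's mean was at least 200. Other members are given as values with their list, and a few named genes are not reported here. Members and lists were chosen with earlier results of these data known. Alternatives changed the added value, the filter, the scaling, the limma settings, the libraries in the fit, a replicate block and corrections for length and GC content. Replicate numbers in the titles did not pair the libraries, so the block is an alternative.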

Additional observations from a re-analysis of the deposited data

Results flagged for a closer look

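Of the 145 genes named by rule, 49 had a high-minus-low difference in MDTH that differed from those of both PFC and HPF by the limma interaction (adjusted p below 0.05 each). Values are the MDTH log2 difference minus that of the tissue nearer to it. No explanation was weighed. Against 622 genes in all that passed the PFC interaction (3.48%) and 3497 that passed the HPF interaction (19.6%), these genes were picked partly for the size of their MDTH difference, so their share is a description.

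Where PFC was the nearer tissue, the excess was positive for Prkcd (2.84), Cacnb4 (1.36), Adarb1 (1.31), Gabra4 (1.24), Atp2a2 (0.87), Sptbn1 (0.72), a membrane skeleton spectrin, and Txn1 (0.48). It was most negative for the transcription factors Pou4f1 (-6.52), Tfap2d (-5.71) and Ebf3 (-4.47), with Klhl1 (-6.27), Mab21l2 (-5.26), Tpbg (-4.99), Gpr101 (-4.84) and Ptprq (-4.50). Synaptic and signalling genes among them were Sv2c (-3.35), Hpcal1 (-3.21), Gad2 (-3.20), the peptidase Ecel1 (-2.90), Lmo3 (-2.78), Adra2c (-2.56), Penk (-2.14), Kcnc4 (-1.86), Syn3 (-1.58), Cacna2d2 (-1.43) and Unc5a (-1.40), and the hippocampal marker Fibcd1 was at -2.84.

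Where HPF was nearer, the excess was positive for Atp6ap1l (2.16) and Atp2b1 (1.16). Receptors were among the negative ones, Htr1a (-3.80), Htr2a (-3.76), Htr4 (-2.60), the delta opioid receptor Oprd1 (-2.15), Cnr1 (-1.48), Ephb1 (-0.83) and Gria1 (-0.55). So were Reln (-4.58), Tac1 (-3.44), Nos1 (-3.26), Cplx2 (-2.57), Pcdh8 (-2.49), Atp2b4 (-2.40), Kcnh1 (-1.93), Cdh22 (-1.65), Dlgap2 (-1.60), Cabp1 (-1.59), the Ras exchange factor Rasgrf2 (-1.52), Pcdh17 (-1.34) and Dlg1 (-0.71). For Pou4f1 the low performers were uneven, as given above. It was at 0 to 15.7 normalized counts in PFC and 0.377 to 31.3 in HPF. At those low counts its log2 difference was 1.49 in PFC and 2.24 in HPF. Its excess of -6.52 therefore exceeds its MDTH difference of -5.03. The MDTH call itself of Oprd1 passed without high 1 alone. Leaving out 1 library also ended the MDTH calls of Htr4 (high 3, low 2 or low 3), Fibcd1 (high 2, low 2 or low 3) and Dlgap2 (high 2, high 3 or low 2), and Adra2c, Gria1 and Pou4f1 are described in the report.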

How the results depend on the processing

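The count of genes that passed in MDTH, 4470, stayed within 1.5 times under both other pseudocounts, both other filters, the 3 other scalings, limma without a trend (3086) or with robust estimation, the corrections for length and for GC content alone, and a fit of all 18 libraries (5445). With columns rescaled to equal totals the split was 1837 higher and 2565 lower. Without 1 library the count ran from 1839 (low 3) to 4223 (high 1), and it was also more than 1.5 times lower without high 2, high 3 or low 2. The replicate block gave 2425 and the block with the length correction 2454, where fewer residual degrees of freedom remain. Deviations of same-numbered libraries correlated at -0.0348, 0.0465 and 0.0341, so the numbers did not pair them. The interaction with PFC, 622, ran from 280 (without MDTH low 2) to 1011 (without MDTH low 1), and was also over 1.5 times different without MDTH high 1, high 2, high 3 or low 3. With the number in the library name as a correlated block it was 1052 (the cause was not tested). The interaction with HPF, 3497, ran from 2514 (without MDTH low 3) to 3652 (without MDTH high 1) when 1 library was left out, and was 5019 with the name number as a correlated block. Of the 143 named genes that passed, 0 reversed in any alternative by limma, 105 to 134 still passed without 1 library, 119 with the block, 122 without the trend, 130 in the fit of all 18 libraries and 140 with the GC correction. With 3 libraries a group, small differences and genes that vary within a group may go uncalled.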
